A study of Homo sapiens with 16 samples.

Results

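Next, the start windows of 6 genes that make, recycle and use glutathione were examined in ChIP-seq data from BJ-5ta cells, which are human fibroblasts that divide without limit because they carry telomerase (hTERT). The genes were GCLC, GCLM, GSS, SLC7A11, GSR and GPX4, and every window that carried one of these symbols was kept, with each alternative start apart. This gave 67 of the 272902 windows in the table, or 62 of 237274 after windows with identical coordinates were merged. GSS had 25 of these windows, GCLC 14, GPX4 11, GSR 6, GCLM 4 and SLC7A11 2. A window covered 2000 bp, 1 kb to each side of an annotated start. The set was chosen by a measured value, the large rise of a GCLC window in low serum in wild type. The wild-type serum values of GCLC are therefore a description and carry no test.

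ChIP-seq reads the DNA of chromatin fragments that an antibody pulled down, and the input is chromatin that skipped the antibody. The labels name the antibody as H3, while the methods of the study name H3K9me2, a histone mark of silent chromatin. Wild-type (WT) and ΔLEO1 cells were grown in 10% serum, where they proliferate, or for 10 days in 0.1% serum, where they become quiescent. The ΔLEO1 cells are a single CRISPR/Cas9 clone, made with guides to the start of LEO1, a subunit of the PAF1 complex of RNA polymerase II, so that the genotype and the clone cannot be told apart. Each of the 8 groups had 2 libraries, marked A and B, and no label says that they came from separate cultures, so p-values measure the spread between these libraries. ΔLEO1 10% serum ChIP replicate A held 54 reads over all windows and was left out. The other 7 ChIP libraries held between 2153836 and 3696942 reads over the windows, and the 8 inputs between 3267811 and 9238282. Counts are given as deposited, or as CPM, counts normalised to the library total after TMM correction. Because these libraries are scaled to their own totals, a shift of the mark over the whole genome cannot be seen here.

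Glutathione is a tripeptide of glutamate, cysteine and glycine and the main small thiol of the cell. Glutamate-cysteine ligase joins the first pair of amino acids, glutathione synthetase adds glycine, and cystine import often limits the supply of cysteine. Many of these genes are targets of NRF2, which binds antioxidant response elements together with small MAF proteins. Dimethylation of H3K9 is usually low at active CpG-rich promoters and higher in silent and intergenic chromatin.

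RefSeq sequences (assembly GRCh38.p14) from 250 bases before to 50 bases after the start were matched for 3 of the 6 genes, GCLC, GCLM and GPX4. The GCLC and GCLM promoters are shown because they encode both subunits of the same enzyme and lie inside start windows whose ChIP counts are given here. They are printed 5′ to 3′ on the minus strand, in lower case, and capitals mark a match to TGACNNNGC on either strand, the core letters of the antioxidant response element.
GCLC, chr6:53545052-53545351: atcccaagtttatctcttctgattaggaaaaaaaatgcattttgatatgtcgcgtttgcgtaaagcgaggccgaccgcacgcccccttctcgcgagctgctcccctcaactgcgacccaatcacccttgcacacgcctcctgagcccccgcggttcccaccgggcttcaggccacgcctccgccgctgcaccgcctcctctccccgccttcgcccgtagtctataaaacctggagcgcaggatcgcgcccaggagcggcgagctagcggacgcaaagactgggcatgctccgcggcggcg
GCLM, chr1:93909381-93909680: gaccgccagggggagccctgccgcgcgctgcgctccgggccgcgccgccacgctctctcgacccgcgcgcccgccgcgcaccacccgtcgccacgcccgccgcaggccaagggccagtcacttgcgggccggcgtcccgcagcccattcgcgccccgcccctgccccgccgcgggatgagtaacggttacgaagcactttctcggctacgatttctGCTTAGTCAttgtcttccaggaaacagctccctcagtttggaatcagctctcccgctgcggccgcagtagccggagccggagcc
The GCLM promoter held 1 match, on the opposite strand, from 34 to 26 bases before the start, and the GCLC promoter and the 3 GPX4 promoters held 0. A match was present in 13.3% of 35116 RefSeq promoters of the same length. CpG was found 32 times in the GCLC promoter, 41 times in the GCLM promoter and 39, 39 and 43 times in those of GPX4, and the median over all promoters was 14. No match says only that these letters are not in this stretch.

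The level of ChIP at these genes was read as the share of ChIP reads in a window divided by its share of input reads (ChIP over input). In wild type, the windows within 2 kb of the RefSeq start of their gene were low. The 41 windows had ratios from 0.126 to 0.774 in 10% serum (median 0.276) and from 0.205 to 0.724 in 0.1% serum (median 0.256). For comparison, the median over all windows was 0.864 in 10% serum and 0.928 in 0.1% serum. The 21 windows farther than 2 kb from the RefSeq start had medians of 0.850 and 1.24, and 6 and 15 of them were above 1. In ΔLEO1, the windows within 2 kb had ratios from 0 to 1.17 in 10% serum (median 0.322, 5 of 41 above 1) and from 0 to 1.01 in 0.1% serum (median 0.217, 2 of 41 above 1). Of these, the 5 GCLC windows had medians of 1.14 and 0.963 in ΔLEO1 against 0.734 and 0.695 in WT. They overlap as 1 place, and every ΔLEO1 10% serum ratio rests on 1 ChIP library with few reads. At the GCLC RefSeq start the ChIP log2 fold change (ΔLEO1 minus WT) was 0.27 ± 0.46 in 10% serum and 0.43 ± 0.35 in 0.1% serum (SE), given without a test. No rise in ΔLEO1 is read from these ratios. The windows farther away had ΔLEO1 medians of 0.782 and 1.14. Many of these windows overlap, so that they are not independent measurements.

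**Figure D1:**
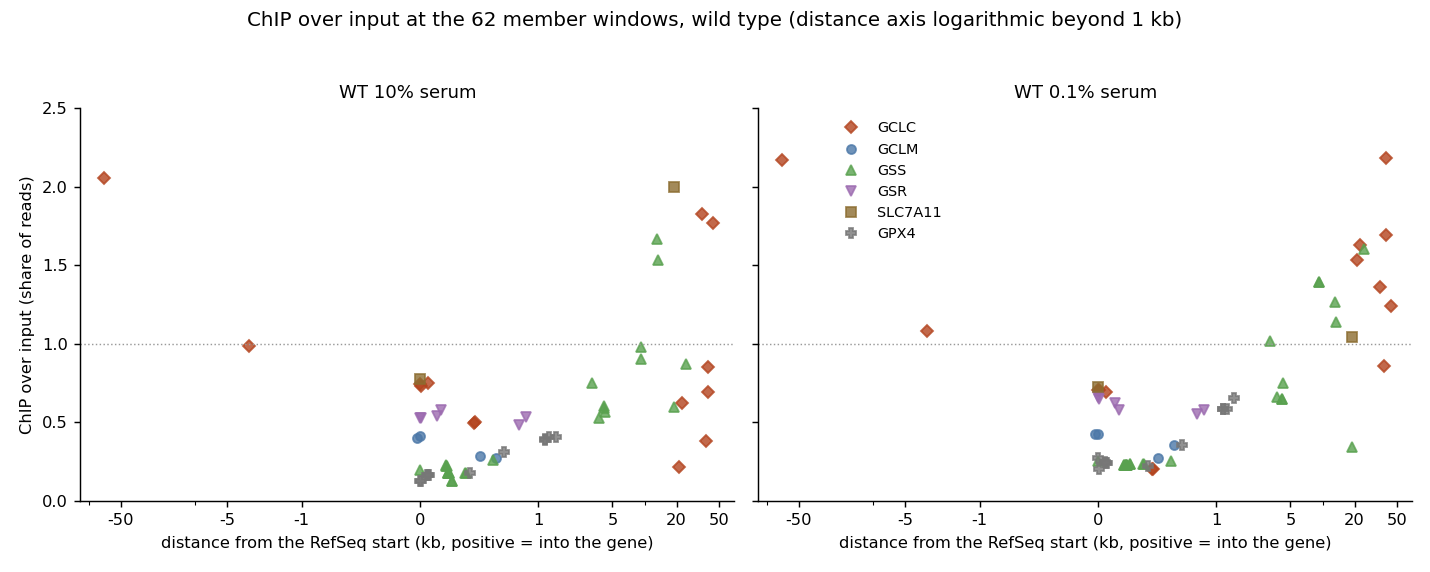
ChIP over input (vertical axis, ratio of read shares) against the distance of the window centre from the RefSeq start of its gene (horizontal axis, kb, logarithmic beyond 1 kb) for the 62 windows, in wild type 10% serum (left) and 0.1% serum (right), with 1 point per window and group mean. Windows within 2 kb stay at or below 0.774 in both panels, and the GCLC diamond at 0.214 on the left stands at 1.53 on the right.

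GSS, which encodes glutathione synthetase, was low at its start and varied farther in. At its RefSeq start (ENST00000643188, chromosome 20, 34955027 to 34957027) the ratio was 0.198 in WT 10% serum and 0.256 in WT 0.1% serum, while 13047 bp into the gene it was 1.67 and 1.27. The rise was not steady, as the ratio 19018 bp into the gene was 0.595 and 0.342. GPX4, the peroxidase that reduces lipid hydroperoxides, has 11 windows within 1460 bp of its RefSeq start, and they held ratios from 0.129 to 0.408 in WT 10% serum. GSR, which regenerates reduced glutathione with NADPH, had ratios from 0.480 to 0.576 over its 6 windows. The 4 windows of GCLM, the modifier subunit of glutamate-cysteine ligase, had ratios from 0.276 to 0.411.

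At GCLC, the catalytic subunit of glutamate-cysteine ligase, low serum went with more ChIP reads at an internal start. The window (ENST00000514933, chromosome 6, 53522928 to 53524928, hg38, minus strand) lies 21173 bp into the gene from the RefSeq start. It was picked for the smallest p among GCLC windows in wild type between the sera, so these wild-type values are a description. WT 10% serum held 4 and 1 ChIP reads (replicates A and B), and WT 0.1% serum held 24 and 16. The mean levels were 0.925 ± 0.852 and 6.57 ± 0.966 CPM (SD, n = 2). The input did not show this step, with 31 and 31 reads in 10% serum and 33 and 27 in 0.1% serum. ChIP over input was 0.214 in 10% serum and 1.53 in 0.1% serum.

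The ΔLEO1 libraries were not used to pick this window. The usable ΔLEO1 10% serum library held 3 ChIP reads (1.40 CPM), and the ΔLEO1 0.1% serum libraries held 25 and 13 (5.90 ± 1.08 CPM, SD, n = 2). Both low-serum libraries were thus above the 10% serum library, and their CPM values of 6.66 and 5.14 lay near those of wild type, 7.25 and 5.88. Between the sera, ΔLEO1 thus had a log2 fold change of 1.68 ± 0.57 (SE). The window was not called at the threshold of 0.05 (edgeR quasi-likelihood test, Benjamini-Hochberg adjusted p). This contrast rests on 1 library in 10% serum, which is assumed to vary like the other groups. The window also passed the filter on low counts only through 0.1% serum libraries, the side where it is high, those of wild type among them. No test is therefore read from this contrast. Over 14 other settings, the log2 fold change lay between 1.44 and 2.07, and no setting called the window. This range is a description. In the ΔLEO1 input, the window held 13 and 36 reads in 10% serum and 21 and 42 reads in 0.1% serum, with a log2 fold change of 0.11 ± 0.28 (edgeR adjusted p = 0.9999). ChIP over input was 0.338 in 10% serum and 1.35 in 0.1% serum. Between the genotypes in 0.1% serum the ChIP log2 fold change (ΔLEO1 minus WT) was -0.12 ± 0.30, and the difference between the serum contrasts of both genotypes was -0.54 ± 0.76. No test is given for these values, as both use the wild-type libraries that picked the window.

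**Figure D2:**
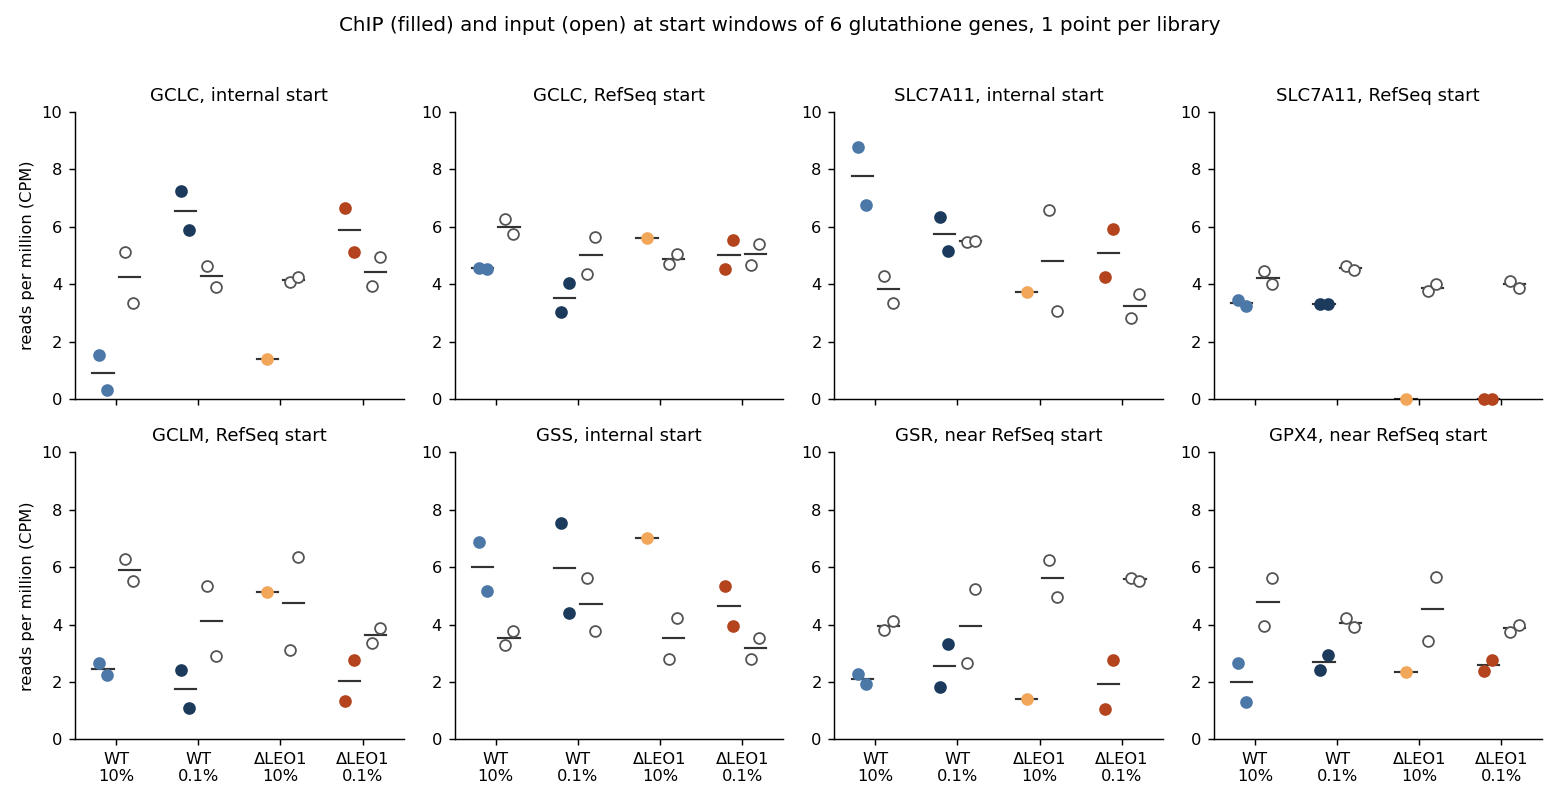
ChIP (filled) and input (open) in CPM on the vertical axis for each library, by group on the horizontal axis, with bars at the group means, for 8 windows of the 6 genes. At the internal GCLC start the 3 libraries in 10% serum lie at or below 1.53 CPM and the 4 in 0.1% serum at or above 5.14 CPM, and at the RefSeq start of SLC7A11 the 3 ΔLEO1 ChIP libraries lie at 0.

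The neighbouring GCLC windows set the limits of this step. A window that overlaps the leading one (ENST00000505294, 53521779 to 53523779) held 6 and 5 ChIP reads in WT 10% serum, 20 and 21 in WT 0.1% serum, 8 in ΔLEO1 10% serum and 27 and 18 in ΔLEO1 0.1% serum. Every library in 0.1% serum was above every library in 10% serum, but the share of all windows that do so was not counted. Nothing is read from this, as the window overlaps the picked one. Its log2 fold change between the sera was 1.52 ± 0.38 in WT, given without a test, and 0.82 ± 0.46 in ΔLEO1 (edgeR adjusted p = 0.595). These windows share reads and count as 1 place. At the RefSeq start (ENST00000650454, 53544101 to 53546101) the counts were 12 and 14 in WT 10% serum, 10 and 11 in WT 0.1% serum, 12 in ΔLEO1 10% serum and 17 and 14 in ΔLEO1 0.1% serum. The levels of all 7 libraries lay between 3.02 and 5.62 CPM. The log2 fold change between the sera was -0.33 ± 0.37 in WT, and -0.16 ± 0.45 in ΔLEO1 (edgeR adjusted p = 0.941). A pair of windows 456 and 468 bp into the gene overlaps the RefSeq start window and each other, so that reads are shared. The first (ENST00000513939) held 9 and 7 reads in WT 10% serum, 4 and 2 in WT 0.1% serum, 10 in ΔLEO1 10% serum and 11 and 5 in ΔLEO1 0.1% serum. The level was 2.85 ± 0.833 CPM in WT 10% serum and 0.972 ± 0.334 CPM in WT 0.1% serum (SD, n = 2). In ΔLEO1 it was 4.68 CPM in the 10% serum library and 2.45 ± 0.676 CPM in 0.1% serum (SD, n = 2). Both windows of the pair passed the filter on low counts only through that ΔLEO1 10% serum library. No difference between the sera is therefore read from them in ΔLEO1. The wild-type log2 fold change was -1.05 and is given without a test.

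The remaining GCLC windows gave no common direction over both genotypes. Apart from the overlapping pair, 11 GCLC windows passed the filter on low counts, and 3 had a positive and 8 a negative log2 fold change between the sera in WT, with a median of -0.22. In ΔLEO1, 5 were positive and 6 negative, with a median of -0.02. The 5 windows around the RefSeq start overlap as 1 place and were negative in both genotypes. They include the pair that passed the filter through the ΔLEO1 10% serum library alone. Other overlapping windows, 39203 and 39437 bp into the gene, had log2 fold changes of 0.73 and 0.66 in WT and of -0.02 and 0.22 in ΔLEO1. The window with the most ChIP reads, 71869 bp upstream of the RefSeq start (ENST00000505197, 53615970 to 53617970), stood at 10.5 ± 0.238 CPM (WT 10% serum) and 10.3 ± 2.13 CPM (WT 0.1% serum, SD, n = 2). In ΔLEO1 it stood at 5.62 CPM in the 10% serum library and at 9.68 ± 1.39 CPM in 0.1% serum (SD, n = 2), and the 10% serum library was the lowest of the 7. Within 100 kb of the leading window, 15 windows of 3 other genes (LINC01564 and a pair of genes without a symbol) had log2 fold changes between -0.11 and 0.21 in WT, and 0 of them were called. In ΔLEO1 the same 15 windows ranged from -0.16 to 0.66, again with 0 called.

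**Figure D3:**
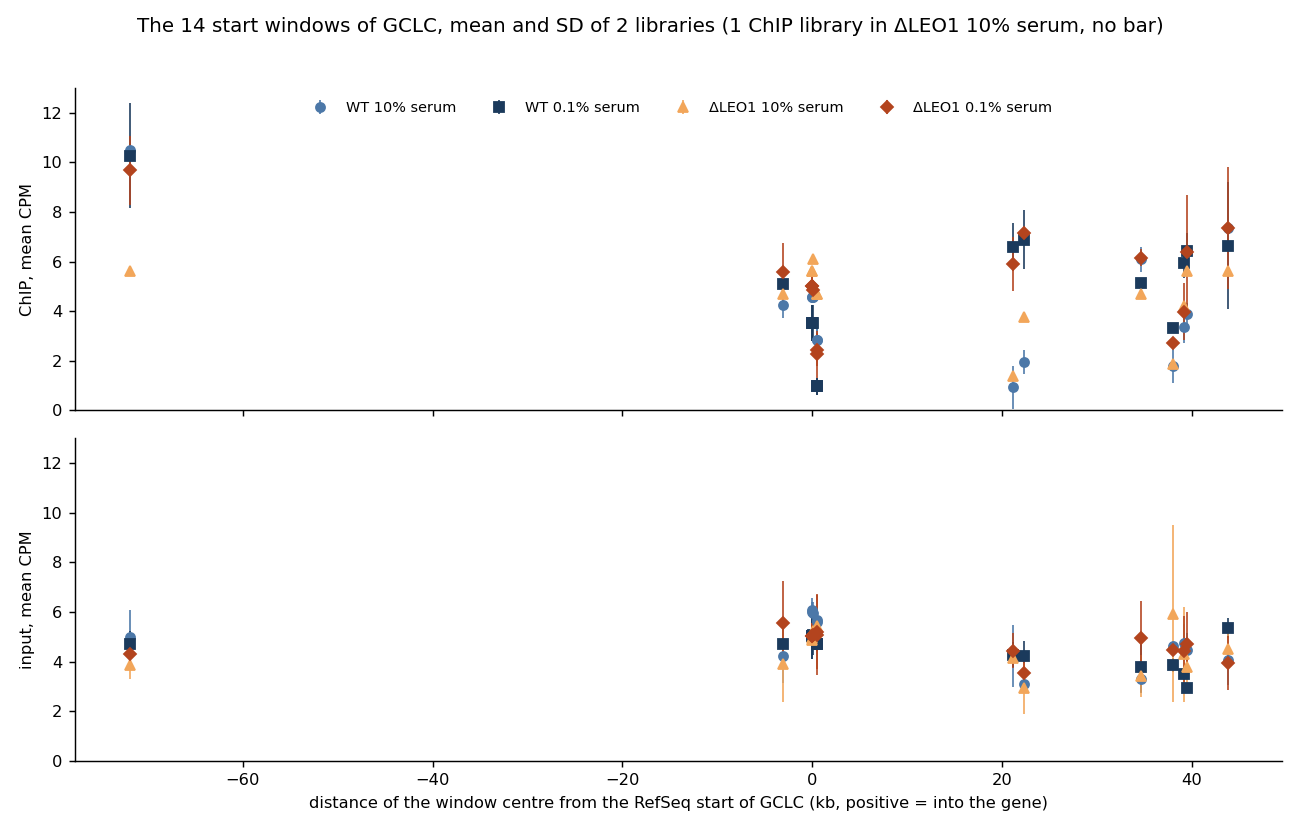
Mean CPM of ChIP (top) and input (bottom) at the 14 GCLC windows against distance from the RefSeq start (kb), with 1 symbol per group and bars for the SD of 2 libraries. At the 2 overlapping windows 21173 and 22322 bp into the gene, both 0.1% serum groups (5.90 to 7.15 CPM) lie above both 10% serum groups (0.925 to 3.74 CPM), while their input means lie between 2.92 and 4.44 CPM.

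Next, the libraries were searched for the windows most like the leading GCLC window, as Pearson's r of log2 CPM over the 7 ChIP libraries. The closest were at ST3GAL3 (r = 0.994, a sialyltransferase), COX20 (r = 0.987, an assembly factor of cytochrome c oxidase) and ACACB (r = 0.987, an acetyl-CoA carboxylase). At ST3GAL3 the counts were 12, 11 and 9 in 10% serum (WT A, WT B and ΔLEO1 B) and 23, 18, 26 and 15 in 0.1% serum (WT A, WT B, ΔLEO1 A and ΔLEO1 B). They had the highest r among all windows with at least 10 reads on average, and the r values are a description.

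SLC7A11 encodes the light chain of the cystine/glutamate antiporter, which imports cystine for glutathione synthesis. Its start window held ChIP reads in wild type alone. At the RefSeq start (ENST00000280612, chromosome 4, 138241349 to 138243349, minus strand) the wild-type ChIP libraries held 9 and 10 reads in 10% serum and 11 and 9 reads in 0.1% serum. The 3 usable ΔLEO1 ChIP libraries held 0, 0 and 0. The inputs held 27 and 37 reads in WT 10% serum, 33 and 31 in WT 0.1% serum, 12 and 34 in ΔLEO1 10% serum, and 22 and 33 in ΔLEO1 0.1% serum. All 8 inputs thus held reads of this window. The ChIP groups of the genotypes did not overlap, but the share of all windows where they do not was not counted. This window was singled out after its counts were seen.

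The wild-type level was 3.33 ± 0.149 CPM (10% serum) and 3.32 ± 0.00963 CPM (0.1% serum, SD, n = 2). Taking 3 reads per library as the limit that a count of 0 allows, the ΔLEO1 level was at least 3.34-fold lower in 0.1% serum and at least 2.37-fold lower in 10% serum. These limits cover only the counting error of the ΔLEO1 counts of 0, and they take the wild-type mean as exact. With so few reads the window was removed by the filter on low counts, so 0 member windows were called between the genotypes in 0.1% serum, where 0.347% of all windows were. The fit of all 242348 windows with a read called it in 0.1% serum (edgeR adjusted p = 0.00183, 0.183% of windows called), with adjusted p from 0.00175 to 1.0 over 13 other settings. It did not pass in 10% serum, where 1 ΔLEO1 library was left (edgeR adjusted p = 0.202, 0.0173% of windows called). Over both sera, a contrast added after the counts were seen, the adjusted p was 2.21e-05 (edgeR, 0.597% of windows called). That call was lost with DESeq2 (adjusted p = 0.999991), and over the other 12 settings the edgeR adjusted p lay between 1.51e-05 and 0.00219. The call in 0.1% serum was lost without WT 0.1% serum replicate A (edgeR adjusted p = 0.0533), without ΔLEO1 0.1% serum replicate A (edgeR adjusted p = 0.173), with all 8 ChIP libraries (edgeR adjusted p = 0.294), and with DESeq2 (adjusted p = 1.0). In the input, the log2 fold change (ΔLEO1 minus WT) was -0.19 ± 0.27 in 0.1% serum (edgeR adjusted p = 0.996) and -0.09 ± 0.28 in 10% serum (edgeR adjusted p = 0.979).

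The pattern of 0 reads was looked for at every distinct window. Of 129311 windows with at least 5 reads in each of the 4 wild-type ChIP libraries, 1 had 0 reads in all 3 ΔLEO1 ChIP libraries, and it was this window. The same held among the 87482 windows with at least 9 reads in each wild-type library. The pattern was set after the counts of this window were seen, and 9 is its lowest wild-type count. That this window was found therefore follows from the pattern, and the counts are a description. In the opposite direction, 0 of 127461 windows with at least 5 reads in each ΔLEO1 library had 0 reads in every wild-type library.

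The surroundings of SLC7A11 held reads in ΔLEO1. An internal start 19105 bp into the gene (ENST00000509248, 138222244 to 138224244) held 23 and 21 ChIP reads in WT 10% serum, 21 and 14 in WT 0.1% serum, 8 in ΔLEO1 10% serum, and 16 and 15 in ΔLEO1 0.1% serum. The log2 fold change (ΔLEO1 minus WT) was -0.92 ± 0.46 in 10% serum (edgeR adjusted p = 0.590) and -0.21 ± 0.32 in 0.1% serum (edgeR adjusted p = 0.875). Within 100 kb of the start, 21 windows of 4 other genes, most of them overlapping starts of LINC00499, had ChIP log2 fold changes from -0.87 to -0.40 in 0.1% serum and from -1.29 to -0.04 in 10% serum, and 0 were called. Their mean ΔLEO1 ChIP levels lay between 2.59 and 6.08 CPM. Their input levels also differed in 0.1% serum, from 2.90 to 3.79 CPM in ΔLEO1 against 4.15 to 5.56 CPM in WT. In 10% serum the mean ΔLEO1 input was above that of WT in 20 of the 21 windows (4.11 to 5.64 against 3.11 to 4.15 CPM). In the fit of ChIP minus input, the start window kept its call in 0.1% serum (edgeR adjusted p = 0.0421).

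**Figure D4:**
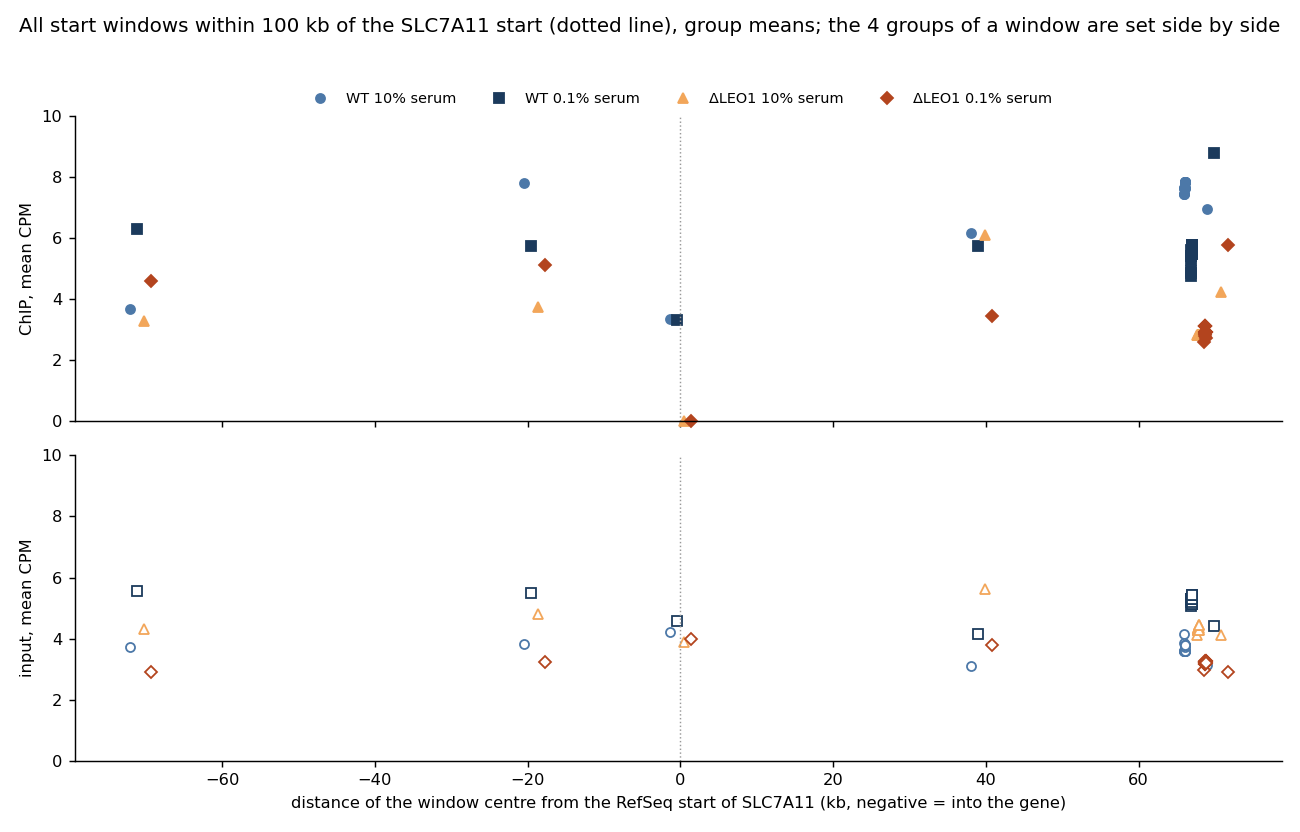
Mean CPM of ChIP (top, filled) and input (bottom, open) at all start windows within 100 kb of the RefSeq start of SLC7A11 (dotted line), against distance (kb), with 1 symbol per group. At the dotted line both wild-type groups stand near 3.32 CPM and both ΔLEO1 groups at 0 in ChIP, and no other window of the region is at 0.

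Regarding the whole set, 27 of the 62 member windows passed the filter for ChIP, 13 of GCLC, 10 of GSS, 2 of GCLM, and 1 each of SLC7A11 and GSR, with 0 of GPX4. In WT between the sera, 2 of 27 were called, both at the internal GCLC start, where 0.27% of all 159524 windows tested were called and 0.0727% were called higher. Nothing is read from this count, as the same contrast chose GCLC. DESeq2 called 0 of the 159524 windows in that contrast (1602 at an unadjusted p under 0.05). In ΔLEO1 between the sera, 0 of 27 were called (0.0633% of all windows), and 1 of 27 had an unadjusted p under 0.05. Between the genotypes, 0 of 27 were called in 0.1% serum and 0 of 27 in 10% serum (0.0295% of all windows), with 0 and 2 at an unadjusted p under 0.05. For the difference between the serum contrasts, 0 of 27 were called (0% of all windows), with 0 at an unadjusted p under 0.05. Such a p was held by 9.27% of all windows for serum in ΔLEO1, 10.7% and 8.39% for genotype in 0.1% and 10% serum, and 5.65% for the difference. DESeq2 called 0 of all windows in each of these contrasts (1676, 2031, 1839 and 881 at an unadjusted p under 0.05 for serum in ΔLEO1, genotype in 0.1% serum, genotype in 10% serum and the difference of serum contrasts).

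For the 14 windows of the 5 other genes that passed the filter, the median log2 fold change between the sera was 0.12 in WT (from -0.37 to 0.93) and 0.39 in ΔLEO1 (from -1.15 to 0.89), and the medians over all windows were 0.01 and 0.02. For 4 of the 27 windows that passed, 2 of GCLM and the GCLC pair near the RefSeq start, only the ΔLEO1 10% serum library reached the minimum. This minimum is scaled to the library size, so a larger library needs more reads to reach it. Nothing is read from their contrasts with this library, which the filter favours. The GCLM windows are still held in the ΔLEO1 median and range above, and the low end of -1.15 is theirs. Of the 10 GSS windows that passed, 10 were positive in WT and 8 in ΔLEO1, and 0 of them were called. In the input, 23 of 25 GSS windows were positive in WT and 19 of 25 in ΔLEO1. Many of these windows overlap, and the share of all windows with a positive sign was not counted. Nothing is therefore read from these signs. The GSS window with the largest value (ENST00000644538, 34945729 to 34947729) held 9 and 10 reads in WT 10% serum, 17 and 25 in WT 0.1% serum, 5 in ΔLEO1 10% serum, and 18 and 13 in ΔLEO1 0.1% serum. Its log2 fold change in WT was 0.93 ± 0.34. This window passed the filter only through 0.1% serum libraries, the side where it is high, so no test is given. The GSS window with the most reads (ENST00000643502, chromosome 20, 34941980 to 34943980) held 18 and 16 reads in WT 10% serum, 25 and 12 in WT 0.1% serum, 15 in ΔLEO1 10% serum, and 20 and 10 in ΔLEO1 0.1% serum, and these groups overlapped.

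At GCLM (ENST00000370238, chromosome 1, 93908430 to 93910430) the counts were 7 and 7 in WT 10% serum, 8 and 3 in WT 0.1% serum, 11 in ΔLEO1 10% serum, and 5 and 7 in ΔLEO1 0.1% serum. The ΔLEO1 10% serum library was the highest at 5.15 CPM, and the others lay between 1.10 and 2.77 CPM. It is also the one library through which the window passed the filter, so no test with it is given. At GSR (ENST00000546342, chromosome 8, 30726835 to 30728835) the counts were 6 and 6, 6 and 9, 3, and 4 and 7 in the same order of groups. At GPX4 (ENST00000585480, chromosome 19, 1104454 to 1106454) they were 7 and 4, 8 and 8, 5, and 9 and 7. Both windows fell below the filter on low counts, so no fold change is given, and the groups were within 1.07 to 3.31 CPM at GSR and 1.29 to 2.94 CPM at GPX4.

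**Figure D5:**
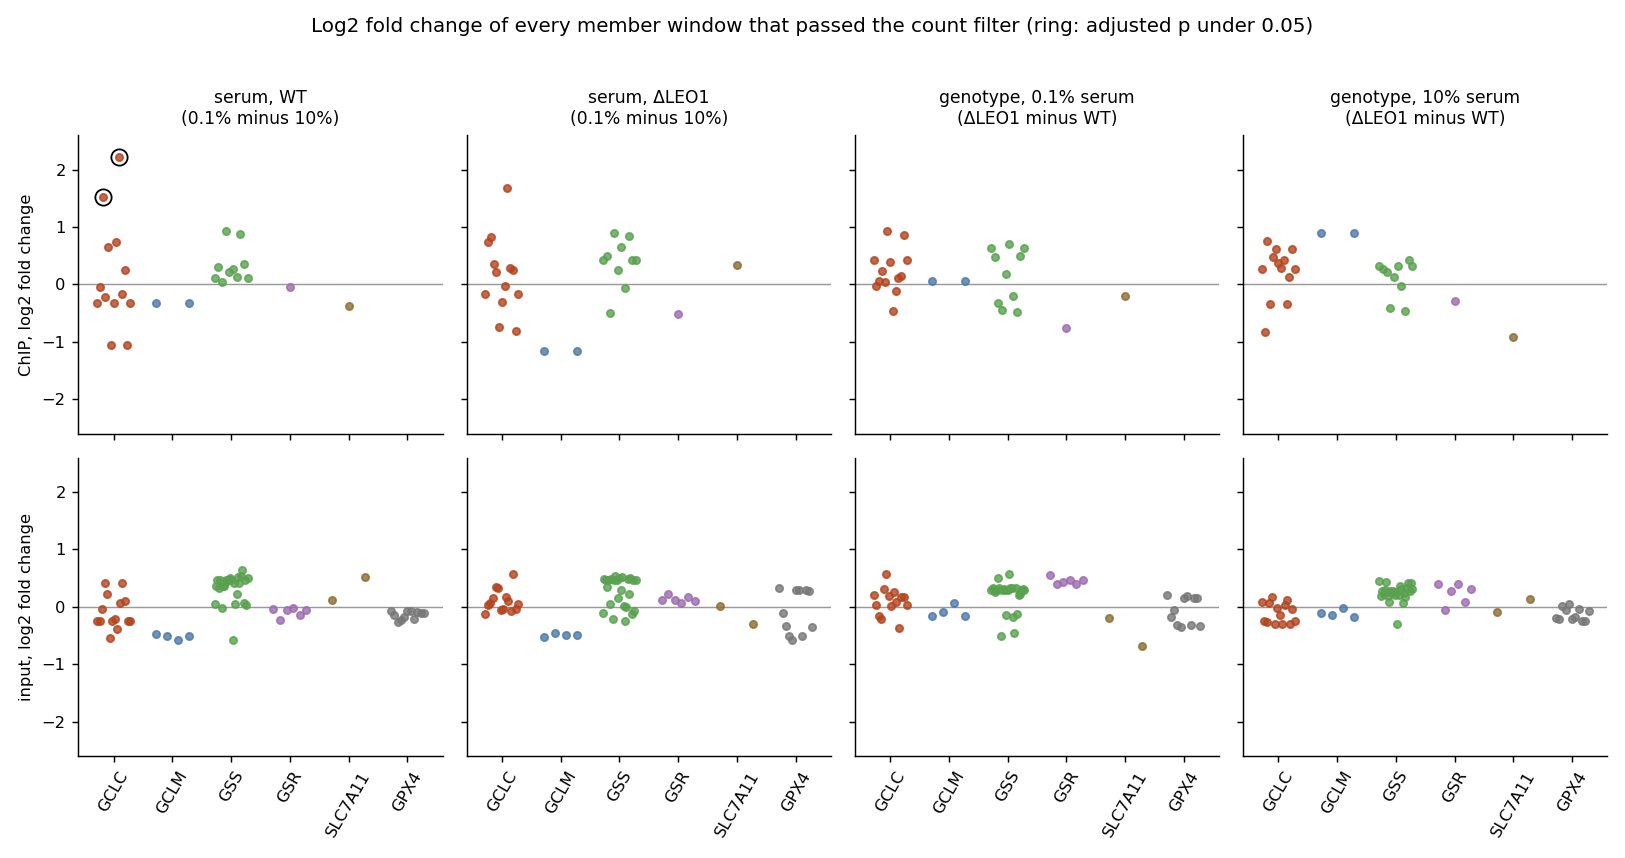
Log2 fold change (vertical axis) of every member window that passed the filter, by gene (horizontal axis), for ChIP (top) and input (bottom) in 4 contrasts, with 1 point per window and a ring where the adjusted p was under 0.05. The 2 rings are GCLC windows at 2.22 and 1.52 in wild type between the sera, and the input points lie between -0.69 and 0.63.

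The input gave the background for these comparisons. All 62 member windows passed the filter in the input, and 0 were called in any contrast, where 0.0235% of all windows were called in WT between the sera, 0.0021% between the genotypes in 10% serum, 0.0176% over both sera and 0% in the others. At an unadjusted p under 0.05 the counts were 4, 3, 3, 0, 2 and 4 of 62 for the wild-type serum, ΔLEO1 serum, genotype in 0.1% serum, genotype in 10% serum, difference of serum contrasts, and genotype over both sera, where 10.2%, 3.96%, 5.33%, 6.6%, 6.56% and 5.63% of all input windows had such a p. Windows of the same gene had like values in the input. The 4 GCLM windows had log2 fold changes from -0.59 to -0.47 between the sera in WT and from -0.52 to -0.46 in ΔLEO1, and the 25 GSS windows had medians of 0.41 and 0.47. The overlapping windows of 1 gene share their reads, and the part of the input in the ChIP values of GSS and GCLM was not tested.

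The second table, of merged peak regions, held 3 regions within 100 kb of these genes. None was near GCLC, SLC7A11, GSR or GPX4. The region closest to GCLM (chromosome 1, 93949548 to 93950235) lies 40293 bp upstream, in a repeat of the ERVL-MaLR family, and held 25 and 26 ChIP reads in WT 10% serum, 23 and 22 in WT 0.1% serum, 16 in ΔLEO1 10% serum, and 26 and 14 in ΔLEO1 0.1% serum. Its inputs held 6 to 12 reads, and over all merged regions the inputs held 111132 to 238490 reads and the 7 ChIP libraries 217472 to 366633. A second region in the neighbourhood of GCLM (93830289 to 93831193), closest to the start of MIR760 and in an LTR7 repeat, held 5 to 28 ChIP reads and 8 to 20 input reads. The region closest to GSS (chromosome 20, 34920588 to 34921499) lies 34592 bp downstream of the GSS start in an exon of another gene and held 15 to 36 ChIP reads and 10 to 24 input reads.

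Finally, 84 other genes of glutathione metabolism were counted: cystine and glutamate carriers, gamma-glutamyl cycle enzymes, peroxidases, transferases, glutaredoxins and thioredoxins, NADPH suppliers, and NRF2 regulators and targets. They had 721 distinct windows, of which 365, from 68 genes, passed the ChIP filter. Between the sera in WT, 3 of 365 windows rose and 0 fell (0.27% of all windows called and 0.0727% called higher), and DESeq2 called 0. They were all at SLC1A2, a glutamate transporter, and 2 of them overlap almost fully. These 2 passed the filter only through 0.1% serum libraries, the side where they are high. Nothing is therefore read from the count of windows that rose. The SLC1A2 window with the smallest p (ENST00000647193, chromosome 11, 35305163 to 35307163) held 16 and 2 reads in WT 10% serum and 35 and 34 in WT 0.1% serum, with a log2 fold change of 1.66 ± 0.31 (edgeR adjusted p = 0.00104). In ΔLEO1 it held 12 reads in 10% serum and 29 and 15 in 0.1% serum. In ΔLEO1 between the sera, and between the genotypes in either serum, 0 of 365 windows were called, with 35, 35 and 31 at an unadjusted p under 0.05 and 0 called by DESeq2. Over all windows 9.27%, 10.7% and 8.39% had such a p, so these counts are near the background. Over both sera, 1 window was higher and 3 were lower in ΔLEO1, where 0.999% of all windows were called (0.201% higher and 0.799% lower), so that the share of these genes is near that of all windows. Of all windows this contrast called 1594, but 0 with DESeq2 (3709 at an unadjusted p under 0.05), 56 with all 8 ChIP libraries and 164 with ChIP minus input. The lower ones were overlapping starts of GSTM3, a glutathione S-transferase of the mu class. At the first (ENST00000256594, chromosome 1, 109739516 to 109741516) WT held 36, 39, 42 and 32 reads and ΔLEO1 held 14, 22 and 18, with a log2 fold change of -0.90 ± 0.22 (edgeR adjusted p = 0.0123). The higher window was at GLRX3, a glutaredoxin (ENST00000619341, chromosome 10, 130179185 to 130181185), with 5, 5, 8 and 5 reads in WT and 10, 24 and 17 in ΔLEO1. Its log2 fold change was 1.24 ± 0.34. The GLRX3 window passed the filter only through ΔLEO1 libraries, the side where it is high, so nothing is read from its call. GSTM3 has close relatives in the same cluster, so that reads may be shared among them. In the input, 650 windows of 77 of these genes were tested and 0 were called in any contrast.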

How the data were processed

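Per the labels and the methods of the study, chromatin was immunoprecipitated with fly chromatin as spike-in, and the authors counted ChIP signals with csaw. The submitters' processing notes name builds hg38 and dm6, bcl2fastq 2.20.0.422, STAR 2.7.10a and HOMER, without their roles. The deposited values are raw counts per TSS window or merged peak region. No fly contig is in either table (0 found), so spike-in scaling was not used, and levels are relative to each library's total.

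Counts of 7 ChIP libraries were fitted with edgeR 4.0.16 in R 4.3.3, and the 8 inputs in a second fit. The test was a quasi-likelihood F-test, two-sided, with 1 coefficient per group, TMM and prior count 2. Low counts were removed with filterByExpr at a minimum count of 10, turned into CPM at the median library size. For ChIP, at least 1 library had to reach it. P-values were adjusted by Benjamini-Hochberg over all windows tested, with a threshold of 0.05. The SE is the size of the log2 fold change divided by the square root of F. The code was tested on simulated data. ChIP over input divides group means of CPM by library total. Distances are from RefSeq gene starts (GRCh38.p14). The libraries used held 2153836 to 9238282 reads over the windows, so a window holds few reads and counting error is large.

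The genes, the pathway list and the windows were chosen with earlier results of these data known. All members were named, with values per library for the GCLC window of smallest p in the wild-type serum contrast, the window with most ChIP reads of each other gene, and any called window. Pathway genes were named if called, and 3 genes for likeness to GCLC (at least 10 reads on average, not within 100 kb). The other settings tried were peak-region totals as library sizes, no filter, plain library totals, DESeq2 1.42.0, the replicate letter as a block, all 8 ChIP libraries, distinct windows, ChIP minus input, and leaving out each library.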

Additional observations from a re-analysis of the deposited data

How the results depend on the processing

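Because a window holds few reads, only large changes can be called, and calls moved with the setting. The 2 GCLC calls in WT between the sera became 0 with DESeq2, 0 with all 8 ChIP libraries and 0 with ChIP minus input, and ranged from 0 to 2 when 1 library was left out (0 without WT 10% serum replicate B or WT 0.1% serum replicate A). In that contrast the log2 fold change of the leading GCLC window ranged from 1.71 to 2.88 over the 14 alternatives. The window was picked in the same contrast and libraries, so this range is a description and no check of the rise. Between the genotypes in 0.1% serum and over both sera, 0 member windows became 1, the SLC7A11 start, with no filter, with peak-region totals and with ChIP minus input. The genotype difference at the leading GCLC window in 0.1% serum (-0.12) turned to 0.16 with peak-region totals and ranged from -0.31 to 0.0267 when 1 library was left out. The cause was not tested. Over all windows, WT between the sera had 431 calls (116 higher), 470 with peak-region totals (299 higher), 5 with 8 libraries, and 0 with ChIP minus input. The genotypes in 0.1% serum had 554 calls (130 higher), 2297 with peak-region totals (2152 higher), 0 with 8 libraries and 27 with ChIP minus input. DESeq2 called 0 in both. Peak-region totals moved the median log2 fold change of all windows to between 0.14 and 0.27 in the serum and genotype contrasts. With the replicate letter as a block, the GCLC calls stayed at 2 and no member call changed. The deviations of same-lettered libraries correlated at 0.00364 to 0.0166 in ChIP and at 0.0125 to 0.108 in the input. Not every pair was over 0.1, so the letters were not taken to pair the samples.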
